A study of Homo sapiens with 2 samples.

Results

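The genes described here encode secreted and cell-surface products of the breast epithelium, and their mRNAs were followed in the RNA that came down from T47D cells with an antibody to IMP1 or with control IgG. Of 10 genes named for this purpose (PIP, AZGP1, SCGB2A2, SCGB1D2, MUCL1, AGR2, AGR3, APOD, CLU and MUC1), 7 are among the 18781 genes of the deposited table. SCGB2A2, SCGB1D2 and MUCL1 were not found there by symbol or by Ensembl identifier and were not analysed here. The genes were chosen by name, with the ratio between the libraries already known, and PIP was selected on that ratio, so every ratio of these genes is a description and no support for a difference.

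T47D is an established line of luminal breast cancer cells, here of wild-type genotype in both groups, and IMP1 is an RNA-binding protein that binds, localises and stabilises many transcripts. In RNA immunoprecipitation (RIP), a lysate is incubated with antibody-coated beads and the RNA that stays on the beads after washing is sequenced. There were 2 libraries, 1 from the precipitate of the anti-IMP1 antibody and 1 from the precipitate of normal IgG, and no input library was used here. With 1 library per group no value has a replicate error, no test between the groups was possible and no p-value is given. The question asked of the comparison is which RNAs were more abundant with the IMP1 antibody than with the control.

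Luminal cells of the breast line the ducts and lobules and release proteins into milk or apocrine fluid. Secreted proteins enter the endoplasmic reticulum, where disulfide isomerases help them to fold, and leave through the Golgi apparatus, where mucins gain their dense O-linked sugars. Prolactin, androgen and estrogen, acting through transcription factors such as STAT5, FOXA1 and GATA3, control many of these genes, and several serve pathologists as signs of a breast origin. T47D cells carry receptors for these hormones.

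Values are FPKM, which divide the fragments of a transcript by its length and by the total of the library, so that levels can be compared between genes. The deposited table writes 0 as 1e-05, which was read as 0. The log2 ratio is that of FPKM + 0.1 with IMP1 over FPKM + 0.1 with IgG, and it understates the difference of low genes. The libraries differed in scale, with FPKM sums of 353885 with IMP1 and 1298363 with IgG, and their numbers of reads are unknown. All genes together had a median log2 ratio of 0.40, and the median of the 6909 genes that reached 1 FPKM in each library was -0.78.

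PIP, AGR2, CLU and APOD were higher in the IMP1 library, from 2.87-fold for AGR2 to 47.6-fold for PIP as a plain quotient of FPKM. MUC1, AGR3 and AZGP1 lay within 2-fold of equal. All 7 genes were above 0 in both libraries, so that none of these ratios rests on a value of 0. With the log2 ratio, 4 of the 7 were at least 2-fold higher with IMP1, beside 39.9% of all genes, and 0 of the 7 were at least 2-fold lower, beside 29.9% of all genes. Of the 6 that reached 1 FPKM in each library, 3 were at least 2-fold higher, beside 11.5% of such genes, and 0 were at least 2-fold lower, beside 44% of such genes. Because the genes were chosen with these ratios known, nothing is read from the distance between these shares. The median log2 ratio of the 7 was 1.52, and it was 0.93 without PIP. With per-gene values from a single library each, it cannot be said whether any gene differed by more than replicate libraries would.

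**Figure D1:**
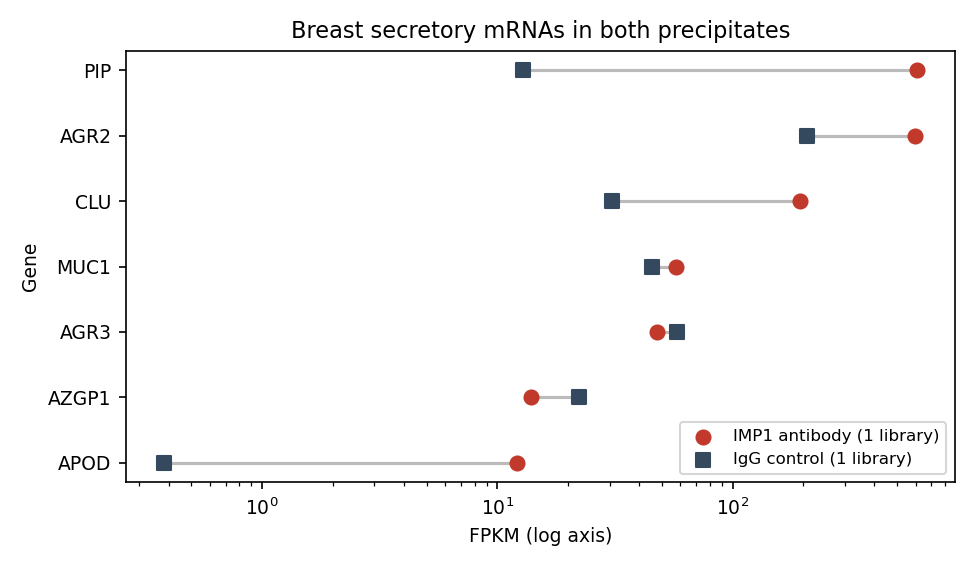
FPKM of the 7 secretory genes (log axis) with IMP1 (circles) and with IgG (squares), 1 library each, ordered by the IMP1 value. PIP spans 12.8 to 608 FPKM and APOD 0.381 to 12.1 FPKM, while MUC1, AGR3 and AZGP1 have both symbols close together.

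PIP (prolactin-induced protein, ENSG00000159763) encodes a small glycoprotein of apocrine fluid, milk and saliva and is a marker of apocrine breast tumours. It lies on chromosome 7 from 142829170 to 142836839 in hg19. Its level was 608 FPKM with IMP1 and 12.8 FPKM with IgG. The log2 ratio was 5.56, the 419th highest of all genes. Among genes that reached 1 FPKM in each library it was the 2nd highest, behind the histone gene HIST1H4B with 115 FPKM and 1.70 FPKM. PIP ranked 38th of all genes by level in the IMP1 library and 3083rd in the IgG library. All genes ahead of it in ratio except HIST1H4B were therefore under 1 FPKM in a library, whereas PIP was well above that in both.

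PIP was selected on its ratio, so a low level with IgG beside a high level with IMP1 restates that selection. Of the 238 genes with at least 100 FPKM in the IMP1 library, a set chosen after the values were seen, the median level with IgG was 230 FPKM, and 11 lay below the 12.8 FPKM of PIP. All 11 were less abundant than PIP with IMP1, at 115 to 225 FPKM. Of these 11, 7 were listed at 0 with IgG. They were HIST1H3B, HIST1H4C and HIST1H3C, the mitochondrial transfer RNAs MT-TT, MT-TK and MT-TE, and AL162151.3. The other 4 were HIST1H4B, HIST1H2AJ and HIST1H2BO, again histone genes, and REEP5, which encodes a shaper of the endoplasmic reticulum membrane, with 126 FPKM and 6.13 FPKM.

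The 5 genes whose pair of levels came closest to that of PIP, by the distance between log2(FPKM + 0.1) values over the 2 libraries, encode histones, ribosomal proteins and a mitochondrial enzyme subunit. HIST1H1C, a linker histone, was the nearest, with 244 FPKM with IMP1 and 20.3 FPKM with IgG at a distance of 1.48. ATP5G2, a subunit of the mitochondrial ATP synthase, followed with 191 and 17.9 FPKM at 1.74. RPS16 and RPL3, which encode ribosomal proteins, had 288 and 34.3 FPKM at 1.78 and 208 and 28.0 FPKM at 1.91. HIST1H2AE lay between them with 218 and 28.8 FPKM at 1.88. Each of the 5 had a smaller ratio than PIP, with log2 ratios between 2.89 and 3.58.

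APOD (apolipoprotein D, ENSG00000189058) encodes a lipocalin that carries small lipophilic molecules and is abundant in breast cyst fluid. It lies on chromosome 3 from 195295573 to 195311076. With IMP1 its level was 12.1 FPKM, against 0.381 FPKM with IgG, and the log2 ratio was 4.67. The IgG value was low. In that library 1559 genes, or 13.5% of those above 0, had a smaller value above 0, and 7270 genes were listed at 0. The 1559 include 228 values below 1e-05, which do not come from whole reads. A pseudocount of 1 gave APOD a log2 ratio of 3.25. By rank APOD was 1815th with IMP1 and 9952nd with IgG.

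CLU (clusterin, ENSG00000120885) encodes a secreted chaperone, also known as apolipoprotein J, that binds misfolded proteins outside cells. It lies on chromosome 8 from 27454434 to 27472548. CLU had 193 FPKM with IMP1 against 30.7 FPKM with IgG, for a log2 ratio of 2.65. CLU ranked 136th with IMP1 and 1276th with IgG. Its listed neighbours on the chromosome were low in both libraries, with 1.16 and 1.48 FPKM for EPHX2 and 2.88 and 0.337 FPKM for SCARA3.

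AGR2 (ENSG00000106541) and AGR3 (ENSG00000173467) encode related members of the protein disulfide isomerase family and lie side by side on chromosome 7, where the deposited locus is 16831435 to 16873057 for AGR2 and 16899029 to 16921611 for AGR3. The locus of AGR2 covers 41623 bases, more than the 13189 bases of the gene in RefSeq (GRCh38.p14). Its ends, and the gap of 25971 bases to AGR3, are those of the deposited locus. No other listed gene overlapped that locus, and why the spans differ was not tested. AGR2 resides in the endoplasmic reticulum, is needed for mucin production in the gut and is induced by estrogen in breast cells. AGR2 had 595 FPKM with IMP1 against 207 FPKM with IgG, and its log2 ratio was 1.52. AGR3 had 47.8 FPKM with IMP1 against 57.9 FPKM with IgG, and its log2 ratio was -0.28. The neighbours thus differed in direction on the deposited scale, although AGR3 was within 2-fold of equal. Inside the IMP1 library AGR2 was 12.4 times AGR3, and inside the IgG library it was 3.58 times AGR3. This pair of quotients does not depend on how the libraries are scaled, and the first was 3.48 times the second.

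AGR2 was among the most abundant mRNAs of both precipitates, 41st with IMP1 and 166th with IgG. It was the highest of the 7 genes with IgG and the second highest with IMP1. AGR3 ranked 454th and 582nd. On the outer side of AGR2 the clone-named AC073333.1 was listed at 0 with IMP1 and had 9.32 FPKM with IgG, and on the outer side of AGR3 the gene AHR, which encodes the aryl hydrocarbon receptor, had 6.38 and 17.3 FPKM.

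MUC1 (ENSG00000185499) encodes a membrane mucin on the apical face of luminal cells, part of which is shed and measured in serum as CA 15-3. With IMP1 it had 57.2 FPKM, and with IgG it had 45.2 FPKM, for a log2 ratio of 0.34. The deposited locus, chromosome 1 from 155141884 to 155162707, is given for MUC1, TRIM46, KRTCAP2 and RP11-201K10.3 alike, so it covers a cluster of genes and is not the span of MUC1 alone. Within that locus KRTCAP2, which encodes a subunit of the oligosaccharyltransferase complex, had 115 and 247 FPKM and TRIM46 had 0.128 FPKM and a listed 0. How reads were shared among these overlapping genes is not given in the sources used here, so the value of MUC1 is uncertain to that extent.

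AZGP1 (zinc-alpha-2-glycoprotein, ENSG00000160862) encodes a secreted protein with a fold like that of class I MHC molecules, which is found in breast cyst fluid and acts on fat metabolism. It lies on chromosome 7 from 99564343 to 99573780. Its level was 13.8 FPKM with IMP1 and 22.2 FPKM with IgG. The log2 ratio of -0.68 was the lowest of the 7 genes. AZGP1 ranked 1603rd and 1837th. The pseudogene AZGP1P1 lies 4604 bases away and had 0.225 and 0.413 FPKM.

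The order of the genes differed between the libraries. With IMP1 it ran PIP, AGR2, CLU, MUC1, AGR3, AZGP1 and APOD, from 608 down to 12.1 FPKM. With IgG it ran AGR2, AGR3, MUC1, CLU, AZGP1, PIP and APOD, from 207 down to 0.381 FPKM. PIP moved from the first place to the sixth, while APOD was the last in both. PIP equalled AGR2 with IMP1, at 1.02 times its level, and was 0.0617 times AGR2 with IgG. PIP was 43.9 times AZGP1 with IMP1 and 0.574 times AZGP1 with IgG. PIP and APOD, the pair with the largest ratios, kept more of their proportion, with PIP at 50.2 times APOD with IMP1 and 33.5 times APOD with IgG. With no replicate, neighbours in either order cannot be said to differ beyond the spread between libraries.

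**Figure D2:**
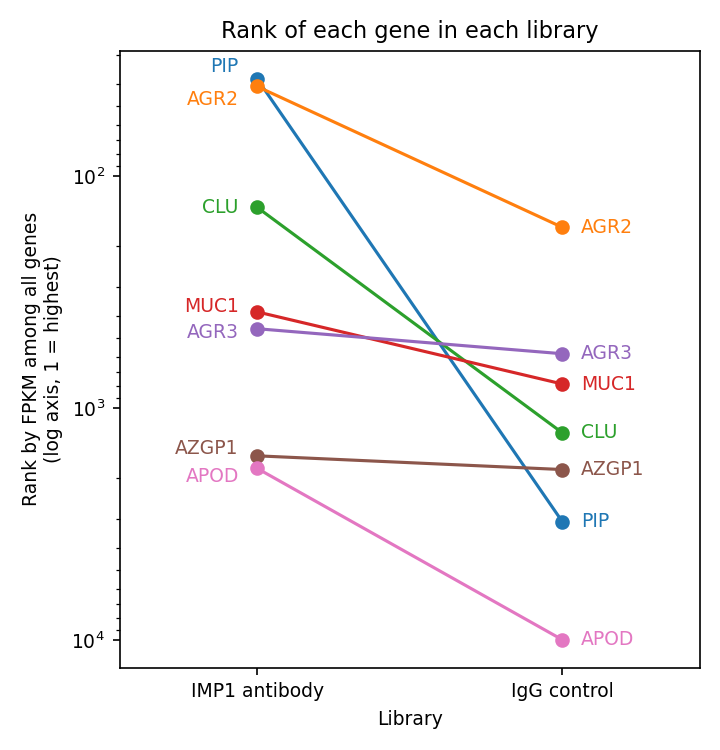
Rank of each secretory gene by FPKM among all 18781 genes (log axis, 1 is the highest) with IMP1 (left) and with IgG (right), 1 library each. The line of PIP falls from rank 38 to rank 3083 and crosses that of every other gene except APOD.

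Every one of the 7 genes ranked higher among all genes with IMP1 than with IgG, including AGR3 and AZGP1, whose FPKM were lower with IMP1. The scale of the libraries matters here. How many of all genes ranked higher with IMP1 was not counted, so nothing about the 7 is read from these ranks. The summed level of the 7 genes was 1527 FPKM with IMP1 and 376 FPKM with IgG, which is 0.431% and 0.0290% of the FPKM sum of each library. Without PIP the sums were 918 and 363 FPKM. MT-RNR1 and MT-RNR2, the ribosomal RNAs of mitochondria, took 37.7% of the FPKM sum with IMP1 and 52.5% with IgG.

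Setting both libraries to the same sum multiplies the IMP1 values by 3.67, or by 1.73 if the median gene that reached 1 FPKM in each library is made equal instead. AZGP1 then had a log2 ratio of 1.19 under the first and 0.11 under the second, and AGR3 had 1.60 and 0.52, so the direction of both depends on the scale. With the same sum all 7 genes were at least 2-fold higher, beside 11815 of all 18781 genes. A scale that makes the 9 luminal markers that reached 1 FPKM in each library equal at their median, chosen after the data were seen, turned MUC1 to -0.74 and put AGR3 at -1.35 and AZGP1 at -1.75. PIP, APOD and CLU stayed at least 2-fold higher under each of these scales and under the sum without the mitochondrial ribosomal RNAs. The lowest log2 ratios among all alternatives were 4.48 for PIP, 3.25 for APOD and 1.57 for CLU, and AGR2 was at 0.44 under the luminal scale.

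**Figure D3:**
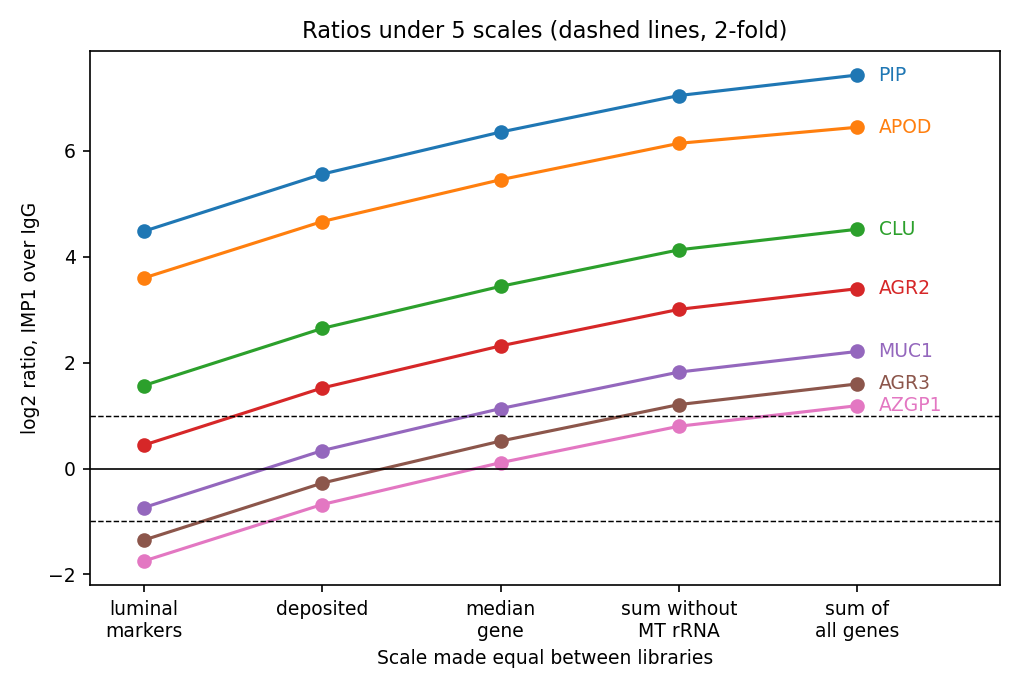
Log2 ratio of each secretory gene, IMP1 over IgG, under 5 scales, which are the deposited values unchanged and rescaled values. The rescaled values make the luminal markers, the median gene, the sum without mitochondrial ribosomal RNAs or the sum of all genes equal between the libraries. The lines run nearly parallel, with PIP between 4.48 and 7.43, while AZGP1, AGR3 and MUC1 cross 0.

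**Figure D4:**
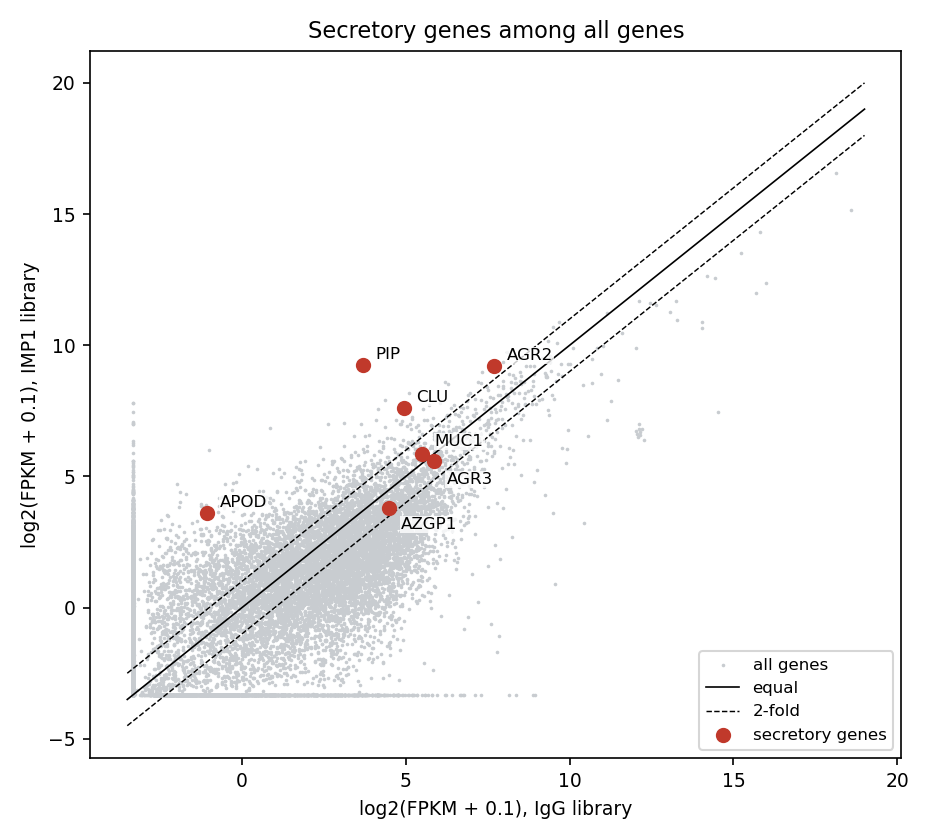
Level of every gene as log2(FPKM + 0.1) with IgG (horizontal) and with IMP1 (vertical), with the 7 secretory genes in red, equality as a solid line and 2-fold as dashed lines. PIP and APOD sit far above the upper dashed line, CLU and AGR2 sit above it, and MUC1, AGR3 and AZGP1 lie between the dashed lines.

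Other genes for breast secretory products were spread over both directions. Of 30 such genes listed beside the 7, 22 were in the table, 12 were at least 2-fold higher with IMP1 and 7 were at least 2-fold lower, with a median log2 ratio of 1.17. TFF3, a small trefoil peptide of mucous secretions, had 24.4 FPKM with IMP1 and was listed at 0 with IgG. CRISP3, a cysteine-rich secretory protein, had 1.85 FPKM and was also listed at 0 with IgG. IGFBP2, which binds insulin-like growth factors, had 34.6 and 2.32 FPKM. On the other side SLPI, an inhibitor of neutrophil elastase, had 0.246 FPKM with IMP1 and 16.1 FPKM with IgG. WFDC2, a related whey acidic protein, had 1.26 and 23.8 FPKM, and SERPINA3, an antiprotease of the acute phase, was listed at 0 with IMP1 and had 7.98 FPKM with IgG. The range of ratios among these genes was wider than among the 7, but 22 genes are set against 7. Its ends, TFF3 and SERPINA3, rest on a listed 0, so nothing is read from the range.

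The families of the secretory genes gave the following counts. Among lipocalins other than APOD, 9 of 18 were counted, with 3 at least 2-fold higher and 4 at least 2-fold lower. Of the 5 with at least 1 FPKM in a library, 1 was higher and 4 were lower by that much. LCN6, which has more than a single row in the table, was left out. LCN2, an iron-siderophore binder of innate defence, had 1.77 FPKM with IMP1 and 746 FPKM with IgG, opposite in direction to APOD. PTGDS, ORM1 and RBP4, which encode prostaglandin D synthase, orosomucoid and the retinol carrier, had 8.26, 20.0 and 10.3 FPKM with IgG, against a listed 0, 0.449 and 0.287 FPKM with IMP1. APOM, at 2.52 FPKM with IMP1 and listed at 0 with IgG, was the only lipocalin of the list with at least 1 FPKM in a library that was higher with IMP1.

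Among apolipoproteins other than APOD and CLU, 2 of 11 were at least 2-fold higher and 5 were at least 2-fold lower. Their median log2 ratio was -0.33. Of the 8 with at least 1 FPKM in a library, 2 were higher and 4 were lower by that much. APOE, the main lipid carrier of tissue fluid, had 47.2 and 59.3 FPKM. APOL1, APOL6 and APOA2 were the lowest in ratio, with 7.36, 2.36 and 3.14 FPKM with IgG against 0.223 FPKM, 0.152 FPKM and a listed 0 with IMP1. The 2 higher genes were APOM, which is also counted among the lipocalins, and APOOL, a protein of the mitochondrial inner membrane, with 1.49 FPKM and a listed 0. APOO, a relative of APOOL, was within 2-fold with 17.2 and 10.1 FPKM.

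Other members of the disulfide isomerase family lay on both sides of equality around AGR2 and AGR3. Of 16 in the table, 5 were at least 2-fold higher, 3 were at least 2-fold lower and the median log2 ratio was 0.27. Of the 15 with at least 1 FPKM in a library, 4 were higher and 3 were lower by that much. P4HB, the founding disulfide isomerase, had 221 FPKM with IMP1 against 66.4 FPKM with IgG, and its log2 ratio was 1.74 beside the 1.52 of AGR2. TMX3 and ERP44 had 3.35 and 2.63 FPKM with IMP1 and were listed at 0 with IgG. DNAJC10, a reductase of the endoplasmic reticulum, had 4.49 and 34.1 FPKM, and TXNDC12 and TMX1 were also lower with IMP1, with log2 ratios of -1.36 and -1.24.

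MUC1 stood apart from the other mucins of the list in its level. The 10 other mucins in the table all had under 1 FPKM in both libraries, and their summed level was 0.472 FPKM with IMP1 and 0.182 FPKM with IgG. Of 25 enzymes that build or extend mucin O-glycans, 18 were in the table. Of these, 8 were at least 2-fold higher, 4 were at least 2-fold lower and the median log2 ratio was 0.60. Of the 14 with at least 1 FPKM in a library, 6 were higher and 4 were lower by that much. GALNT10, which starts such chains, had 16.9 and 1.53 FPKM, and the sialyltransferases ST3GAL1 and ST3GAL2 had 4.69 and 1.11 FPKM, and 2.21 FPKM and a listed 0. GALNT12, GALNT7 and GALNT3, which also start O-glycans, had 4.64, 9.74 and 9.86 FPKM with IgG against a listed 0, 1.57 and 2.74 FPKM with IMP1.

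The secretoglobin family was hardly seen. Of 8 secretoglobins listed beside SCGB2A2 and SCGB1D2, 2 were in the table. SCGB3A1 had 1.59 FPKM with IMP1 and was listed at 0 with IgG, and SCGB2B2 was listed at 0 with IMP1 and had 0.0833 FPKM with IgG.

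Genes that control secretory luminal cells were near equal or higher with IMP1 among those reported here, a list that leaves out a gene. Of the 17 reported here, all in the table, 11 were at least 2-fold higher and 0 were at least 2-fold lower. This is beside 39.9% and 29.9% of all genes. The median log2 ratio was 1.32. Of the 14 with at least 1 FPKM in a library, 8 were higher and 0 were lower by that much. PRLR, the receptor for prolactin, the hormone that gave PIP its name, had 185 FPKM with IMP1 and 27.6 FPKM with IgG. STAT5B, which carries the signal of that receptor, had 3.31 and 0.582 FPKM, and CREB3L4, a transcription factor held in the endoplasmic reticulum membrane, had 9.38 FPKM and a listed 0. ATF6, TFAP2C and ESR1 had the lowest ratios and were within 2-fold, with log2 ratios of -0.30, -0.29 and 0.09.

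**Figure D5:**
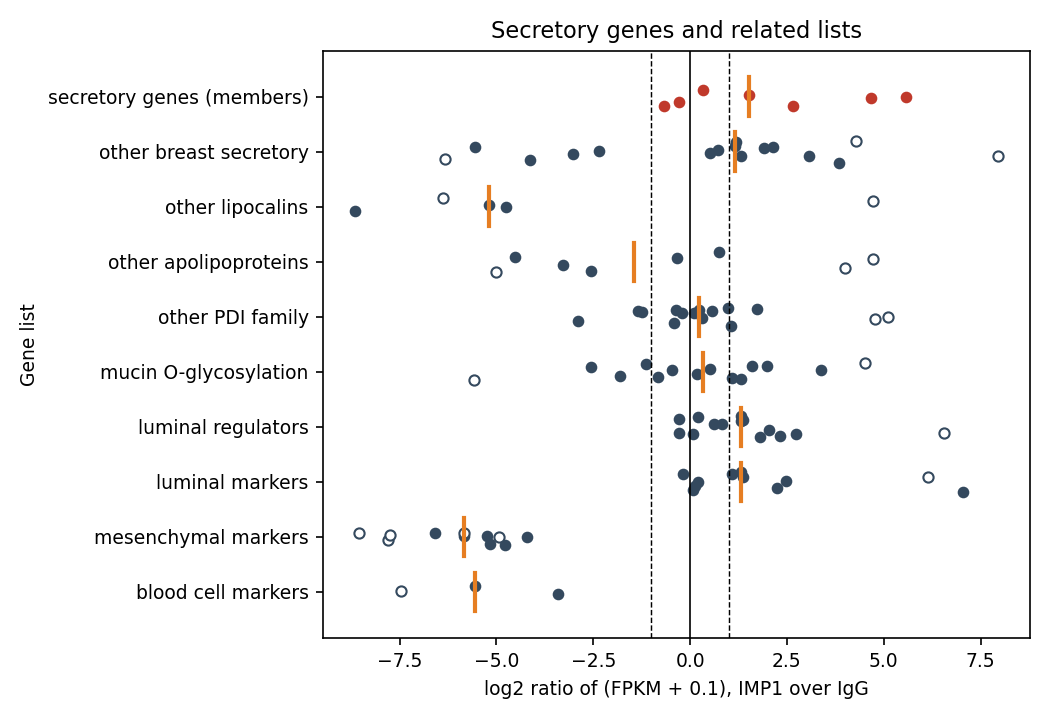
Log2 ratio of FPKM + 0.1, IMP1 over IgG, for each gene with at least 1 FPKM in a library, by list, with the list's median as an orange bar, 2-fold as dashed lines and open circles for genes listed at 0 in a library. The 7 secretory genes run from -0.68 to 5.56, and 11 of 11 mesenchymal markers lie below -4.

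Markers of luminal cells were present in both libraries. All 12 luminal markers were in the table, 8 were at least 2-fold higher with IMP1 and 0 were lower by that much. Of the 11 with at least 1 FPKM in a library, 7 were higher and 0 were lower by that much. The summed levels of the 12 were 971 FPKM with IMP1 and 345 FPKM with IgG. Their median log2 ratio was 1.34, beside 1.52 for the secretory genes. The list shares ESR1, FOXA1, GATA3 and PGR with the genes that control secretory luminal cells, and TFF1 with the other breast secretory genes. EPCAM, ESR1 and CDH1 were near equal, with log2 ratios of -0.19, 0.09 and 0.13, while KRT18 had 143 and 25.8 FPKM, CLDN4 had 64.7 and 0.393 FPKM and ELF3 had 6.98 FPKM and a listed 0. Mesenchymal markers lay on the other side. Of 14 mesenchymal markers in the table, 13 were at least 2-fold lower with IMP1, their summed level was 3.19 FPKM with IMP1 and 238 FPKM with IgG, and 6 were listed at 0 with IMP1. Among them DCN, LUM and ZEB2 had 37.5, 22.0 and 21.3 FPKM with IgG. Blood cell markers were fewer, with 5 listed, of which 3 were at least 2-fold lower and 2 at least 2-fold higher. The 2 higher ones were under 1 FPKM in both libraries. The 3 lower ones were CD74 at 6.42 and 305 FPKM, HLA-DRA at a listed 0 and 17.4 FPKM and CD68 at 0.369 and 4.88 FPKM.

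Few basal, liver or prostate markers were seen. Of 5 basal or myoepithelial markers in the table, 1 was at least 2-fold higher and 3 were at least 2-fold lower, and ACTA2, at 2.36 and 7.79 FPKM, was the only one with at least 1 FPKM in a library. Of 3 hepatocyte markers, 1 was higher and 1, APOA2, was lower by that much, and SERPINA1, which is also on the list of breast secretory genes, had 78.1 and 47.5 FPKM. Of 4 prostate markers, 2 were higher and 2 were lower, with TMPRSS2 at 1.92 and 5.23 FPKM. Whether RNA from other cell types has a part in the ratios of PIP and the other secretory genes was not tested. Per the labels both libraries come from T47D cells and differ in the antibody. In such bulk precipitates fewer cells of a type, less RNA per cell and less RNA held by the antibody cannot be told apart.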

How the data were processed

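RNA from an IMP1 or IgG precipitate of T47D cells was measured in 1 library per group. The authors deposited FPKM per gene for both libraries, and per the labels the genome build is hg19. The aligner, the FPKM software and the annotation are not given in the sources used here. Deposited starts count from 0, so 1 was added. Above 0 but below 1e-05 lay 346 values with IMP1 and 228 with IgG, which do not come from whole reads, so depth is unknown. The authors' ratio, p-value and q-value columns and their lists of differential genes hold their own comparison and were not used.

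The log2 ratio of FPKM + 0.1 was computed for 18781 genes and counted at 2-fold, with no test. Genes named beside the secretory genes are, for each list, the 3 highest and 3 lowest in ratio with at least 1 FPKM in a library and those listed at 0 in a library with at least 5 FPKM in the other, chromosomal neighbours, the 5 genes most like PIP, and genes said to be chosen after their values were seen. APOE, SCGB2B2 and genes at the ends of other rankings were also named after their values were seen. A gene of the list of regulators is not reported here. The genes and lists were chosen with earlier results of these data known. Alternatives were other pseudocounts, scales, filters and a 4-fold threshold. The counting was tested on simulated data for 18781 genes, where it recovered 100% of the 200 genes that were changed. The simulated libraries had small noise, no value of 0 and changes well past 2-fold, so recovery was set by construction. It checks the code and says nothing about the counts on these data. The work used Python 3.11.15 with numpy 2.4.6, pandas 2.3.3 and matplotlib 3.10.9.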

Additional observations from a re-analysis of the deposited data

How the results depend on the processing

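With 1 library per group no replicate could be left out, and depth could not be checked, since read numbers are unknown. No paired analysis was possible because each group holds 1 library and no test was run. A value was taken as moved where it differed by more than 1.5-fold. Of the 7 secretory genes, 4 were at least 2-fold higher with IMP1, beside 7488 of all 18781 genes. With the libraries set to the same sum 7 were, beside 11815 of all genes. At least 2-fold lower were 0, beside 5610 of all genes. With the luminal markers made equal, a scale chosen after the data were seen, 2 were lower by that much, beside 7750 of all genes. The counts of higher secretory genes lay between 3 and 6 under the other alternatives. They were 3 at 4-fold, beside 4901 of all genes, and 6 with the same sum without mitochondrial ribosomal RNAs, beside 11036. Among genes above 0 in both libraries the count was 4, beside 1807 of 10309 such genes. The median log2 ratio, 1.52, became 2.32 with the median gene made equal, 3.40 with the same sum, 3.01 with the same sum without mitochondrial ribosomal RNAs, 0.44 with the luminal markers made equal and 0.93 without PIP, also chosen after the data were seen. Each rescaling shifts all genes together by its own construction, by 0.79, 1.88, 1.48 and -1.08 on the log2 scale before the pseudocount is added.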
